A study of Oryctolagus cuniculus with 9 samples.

Results

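The genes described here are 9 regulators of the cell cycle and of the response to DNA damage, measured by RNA-seq in the rabbit diaphragm: CDKN1A, which encodes p21, the p53 targets MDM2, GADD45A, PLK3, DDB2 and CCNG1, and the cyclin-dependent kinase (CDK) inhibitors CDKN1B, CDKN2B and CDKN2D. They were chosen by gene name, with earlier results of these data known. All 9 were found among the 29076 genes of the deposited table. The MV group was made of New Zealand white rabbits ventilated for 48 h with a PEEP (positive end-expiratory pressure) of 0 cmH2O. The ventilator ran in a volume assist-control mode, under which the paper reports that the rabbits kept spontaneous breathing. The MV_PEEP group was ventilated with PEEP; its labels carry the value 8 without a unit, and neither its duration nor its other settings are given in the sources used here. The CON group breathed spontaneously under the anaesthesia that the study describes for all its animals. Each group had 3 libraries of poly(A) RNA from whole diaphragm tissue, and no source says in words that each library came from a separate rabbit, so the p-values speak only of the spread among libraries, which may be technical.

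p53 is a transcription factor that cells stabilize after DNA damage and other stress. One of its best known targets is CDKN1A, whose product p21 binds cyclin-CDK2 complexes and so keeps the retinoblastoma protein unphosphorylated and the cell out of S phase. Lasting p21 expression is a mark of senescent cells, but in muscle p21 also accompanies the exit of myoblasts from the cycle, and in mouse muscle it responds to denervation and disuse.

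Levels are given as FPKM, read pairs scaled to transcript length and library size, which allows genes of different length to be compared. On this scale the members spanned a wide range. Averaged over the 9 libraries, CCNG1 stood at 95.3, GADD45A at 47.7, MDM2 at 20.3, CDKN1B at 19.4, CDKN2D at 17.3 and DDB2 at 14.5. CDKN1A averaged 7.84, PLK3 0.859 and CDKN2B 0.636. The range of each member over the libraries overlapped that of its neighbours in this order, so the order of neighbours is not separated by their spread. All 9 members passed the filter for testing, a mean FPKM of at least 0.5, which left 12981 genes. PLK3 passed through its ventilated libraries alone, since its CON mean was 0.154.

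Some properties of the libraries bear on these genes. Total counts ranged from 24670232 to 43697018 in the MV group, from 33024311 to 41077310 in the MV_PEEP group and from 21646702 to 31791693 in the CON group. Markers of skeletal muscle fibres were abundant throughout, with a summed level over 7 of 10 listed markers of 28300 to 42000 FPKM in the MV group, 21200 to 42700 in the MV_PEEP group and 55800 to 65700 in the CON group. The 6 neutrophil markers summed to 30.4 to 1070 FPKM in the MV group, 152 to 285 in the MV_PEEP group and 2.96 to 19.1 in the CON group, with MPO listed at 0 in every library. The 1070 belongs to MV replicate 1. The 6 fibroblast markers summed to 216 to 424 FPKM in the MV group, 131 to 3730 in the MV_PEEP group and 396 to 1520 in the CON group, and the 3730 belongs to MV_PEEP replicate 3. These 2 libraries stand apart, and the main values that move with them are also given without them, a choice made after seeing the data. In whole tissue, a change in the number of cells of a type and a change in the RNA per cell cannot be told apart.

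**Figure D1:**
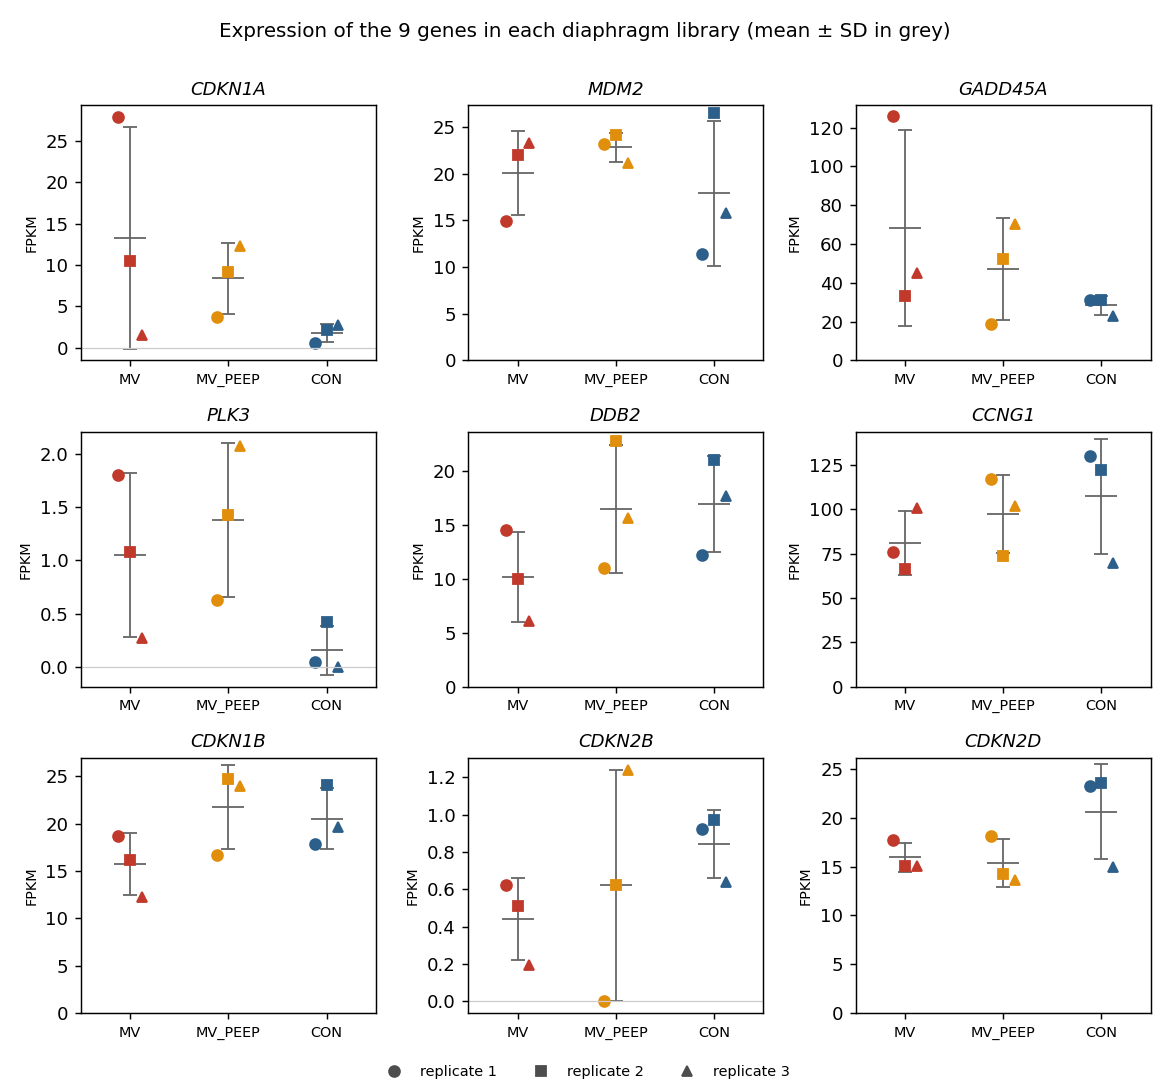
FPKM of each of the 9 genes in the MV, MV_PEEP and CON groups, with 1 point per library (the shape gives the replicate number) and the group mean ± SD in grey (n = 3). For CDKN1A and PLK3 the 3 MV_PEEP libraries sit above all 3 CON libraries, while MV replicate 3 lies within the CON range for both.

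The level of CDKN1A was 27.9, 10.5 and 1.49 FPKM in the MV libraries, 3.77, 9.14 and 12.3 in the MV_PEEP libraries and 0.593, 2.12 and 2.73 in the CON libraries. The gene lies on chromosome 12 of OryCun 2.0, from 26614081 to 26621175 on the plus strand. All 3 MV_PEEP libraries were above all 3 CON libraries, whereas MV replicate 3 lay between CON replicates 1 and 2. The spread within the MV group was as large as its mean, 13.3 ± 13.5 FPKM (SD, n = 3), against 1.81 ± 1.10 FPKM in the CON group. The MV_PEEP group averaged 8.41 ± 4.31 FPKM.

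With all 9 libraries in 1 edgeR quasi-likelihood fit, the log2 fold change of CDKN1A in the MV group against the CON group was 2.67 (SE 0.85, 95% confidence interval 0.79 to 4.56), a 6.38-fold higher level. Its unadjusted p was 0.0102, the smallest of the 9 members and rank 239 of the genes tested, and its Benjamini-Hochberg adjusted p was 0.549. In the MV_PEEP group against the CON group the log2 fold change was 1.83 (SE 0.82, interval -0.01 to 3.66), with an edgeR adjusted p of 0.8. For the 6 ventilated libraries together it was 2.25 (SE 0.78), with an edgeR adjusted p of 0.502, and the exact 2-sided permutation test of mean log2(FPKM + 1) gave p = 0.0714, where 0.0238 is the smallest value that 6 against 3 allows. None of these differences passed the adjusted threshold of 0.05. Without MV replicate 1, the library with the highest sum of neutrophil markers, the log2 fold change in the MV group was 1.62. Without MV_PEEP replicate 3 that in the MV_PEEP group was 1.70.

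PLK3, a stress-activated polo-like kinase that phosphorylates p53 in human cells, had the lowest CON level of the set. It was measured at 1.80, 1.08 and 0.266 FPKM in the MV libraries, 0.627, 1.43 and 2.07 in the MV_PEEP libraries and 0.0418, 0.421 and 0 in the CON libraries. The counts behind these values were 110, 114 and 29 in the MV group, 57, 117 and 208 in the MV_PEEP group and 4, 27 and 0 in the CON group. The count of 0 in CON replicate 3 allows a level of up to 0.0559 FPKM (3 counts, counting error only). The MV_PEEP libraries were all above the CON libraries, and MV replicate 3 was below CON replicate 2.

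The log2 fold change of PLK3 was 2.65 (SE 1.16) in the MV group and 2.82 (SE 1.17) in the MV_PEEP group against the CON group, with edgeR adjusted p-values of 0.707 and 0.774. Over the 6 ventilated libraries it was 2.73 (SE 1.09) with an edgeR adjusted p of 0.604. Since PLK3 was tested only because of its level in the ventilated libraries, these p-values are not support for a difference. With limma on log2(FPKM + 1) the log2 differences were 0.77, 1.01 and 0.89, but adding 1 shrinks differences between levels this low. With limma on log2(FPKM + 0.1) the MV difference was 2.26. Leaving out CON replicate 2 moved the MV difference to 4.80 and the MV_PEEP difference to 4.99, so the size of the difference depended on the few CON counts. The MV difference was 2.10 without MV replicate 1, and the MV_PEEP difference was 2.64 without MV_PEEP replicate 3. The gene, on the minus strand of chromosome 13 from 121823272 to 121827982, overlaps TCTEX1D4 on the other strand. That neighbour averaged 0.124 FPKM, and whether the counting used strand is not stated.

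GADD45A encodes a growth arrest and DNA damage protein that is induced through p53 and, in denervated or immobilized mouse muscle, through ATF4. It lies on chromosome 13 from 98577231 to 98580357 on the minus strand. Its level was 126, 33.2 and 44.9 FPKM in the MV libraries, 18.8, 52.0 and 70.4 in the MV_PEEP libraries and 31.2, 30.9 and 22.8 in the CON libraries. On FPKM all 3 MV libraries were above all 3 CON libraries, but on counts scaled by TMM (trimmed mean of M values) MV replicate 2 had a CPM (count scaled to the library's total) of 47.0, below the 57.6 of CON replicate 1. The MV_PEEP group spanned the whole CON range.

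The log2 fold change of GADD45A in the MV group was 1.11 (SE 0.51, interval -0.02 to 2.23) with an edgeR adjusted p of 0.712, and without MV replicate 1 it was 0.49. In the MV_PEEP group against the CON group it was 0.30 (SE 0.50). MV replicate 1 thus held the highest level of both CDKN1A and GADD45A, together with the highest sum of neutrophil markers. The part of those cells in either result was not tested.

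**Figure D2:**
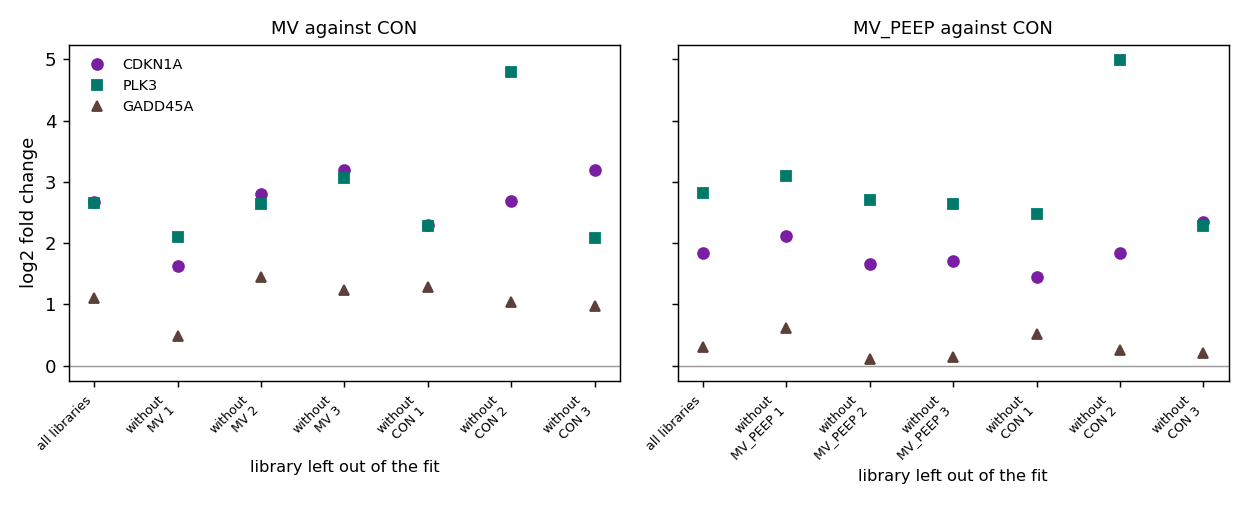
log2 fold change (edgeR) of CDKN1A, PLK3 and GADD45A in the MV group against the CON group (left) and the MV_PEEP group against the CON group (right), with all libraries and with each library of the 2 groups left out in turn. Every value stays above 0, CDKN1A and GADD45A are lowest in the MV comparison without MV replicate 1 (1.62 and 0.49), and PLK3 is highest without CON replicate 2.

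MDM2, the ubiquitin ligase that marks p53 for degradation and is itself a p53 target, had levels that overlapped between the 3 groups. Its level was 14.9, 22.0 and 23.3 FPKM in the MV libraries, 23.2, 24.2 and 21.1 in the MV_PEEP libraries and 11.4, 26.5 and 15.8 in the CON libraries, on chromosome 4 from 47780978 to 47813244. On FPKM the CON libraries held both the lowest and the highest value. On TMM-scaled counts MV libraries held both, with 43.5 CPM in MV replicate 1 and 92.8 CPM in MV replicate 3. The log2 fold change was 0.16 (SE 0.38, interval -0.68 to 1.0) in the MV group and 0.10 (SE 0.38, interval -0.74 to 0.93) in the MV_PEEP group. Both signs turned when CON replicate 1 was left out, to -0.03 and -0.06.

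DDB2, a damage recognition factor of nucleotide excision repair, averaged lower in the MV group. It had 14.5, 9.94 and 6.13 FPKM in the MV libraries, 11, 22.8 and 15.6 in the MV_PEEP libraries and 12.2, 21 and 17.7 in the CON libraries. MV replicate 1 exceeded CON replicate 1 on FPKM, and on TMM-scaled counts all 3 MV libraries (24.3, 17.6 and 14 CPM) were below all 3 CON libraries (28.1, 35.9 and 37.2 CPM). The log2 fold change in the MV group was -0.86 (SE 0.36, interval -1.66 to -0.05), with an unadjusted p of 0.0393 and an adjusted p of 0.69 in edgeR. Against the same CON libraries the MV_PEEP group differed by -0.35 (SE 0.36).

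CCNG1 encodes cyclin G1, which in human cells recruits a phosphatase to MDM2, and was the most abundant member. It was measured at 75.9, 66.2 and 101 FPKM in the MV libraries, 117, 73.7 and 102 in the MV_PEEP libraries and 130, 122 and 69.9 in the CON libraries. The groups overlapped, and the log2 fold changes were -0.47 (SE 0.43) in the MV group and -0.45 (SE 0.43) in the MV_PEEP group. DDB2 lies on chromosome 1 from 186575953 to 186594227 and CCNG1 on chromosome 3 from 44664946 to 44672375.

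**Figure D3:**
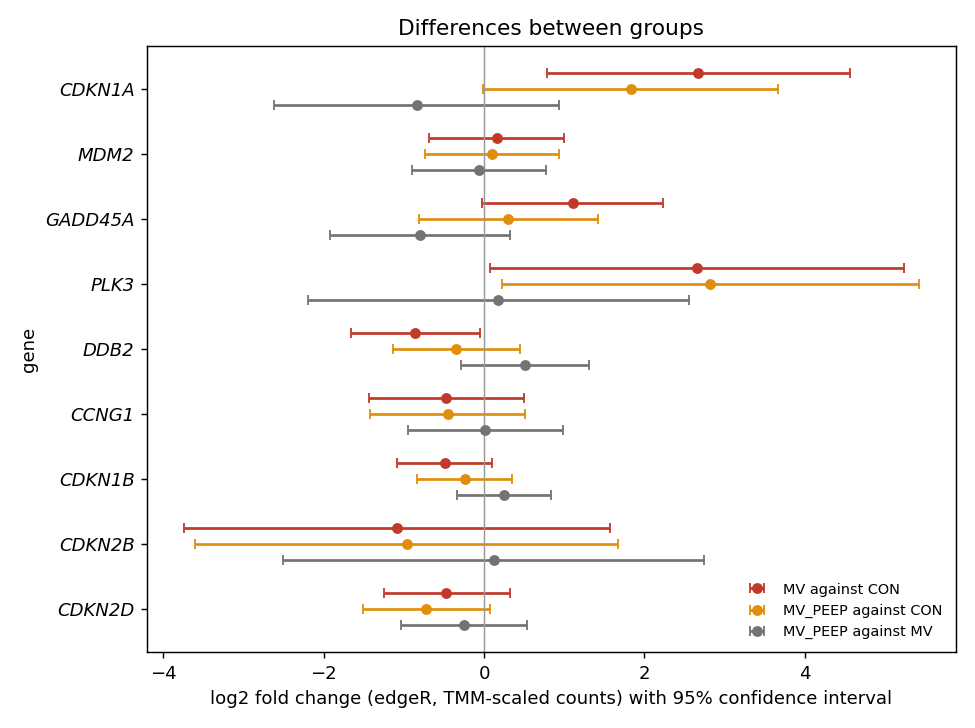
log2 fold change with 95% confidence interval (edgeR, TMM-scaled counts) of each gene for the MV group against the CON group, the MV_PEEP group against the CON group and the MV_PEEP group against the MV group. The MV intervals of CDKN1A, PLK3 (above 0) and DDB2 (below 0) leave out 0, as does the MV_PEEP interval of PLK3, but no adjusted p was under 0.05.

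The other CDK inhibitors all averaged lower in the MV group on both scales, set against the CON group. CDKN1B encodes p27, which like p21 acts on cyclin-CDK2 and holds resting cells out of the cycle. Its level was 18.7, 16.2 and 12.3 FPKM in the MV libraries, 16.7, 24.7 and 24 in the MV_PEEP libraries and 17.9, 24.1 and 19.6 in the CON libraries. On TMM-scaled counts the CON libraries were tight, at 62.5, 62.3 and 62.3 CPM, and all 3 MV libraries lay below them at 47.3, 43.4 and 42.5 CPM. The log2 fold change was -0.49 (SE 0.27, interval -1.08 to 0.10) in the MV group and -0.24 (SE 0.27) in the MV_PEEP group. The MV_PEEP value turned to 0.08 in the limma fits on log2 FPKM, which differ from edgeR in both scale and test. The gene lies on chromosome 8 from 27009890 to 27015150.

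CDKN2B encodes p15 and CDKN2D encodes p19, which bind CDK4 and CDK6. CDKN2B was barely expressed, at 0.621, 0.509 and 0.194 FPKM in the MV libraries, 0, 0.624 and 1.24 in the MV_PEEP libraries and 0.924, 0.970 and 0.637 in the CON libraries. The MV libraries were all below the CON libraries on FPKM and on TMM-scaled counts. The MV_PEEP group held the lowest value on both scales, but the highest on FPKM only. On TMM-scaled counts CON replicate 1 was highest at 2.52 CPM, against 1.85 CPM in MV_PEEP replicate 3. The count of 0 in MV_PEEP replicate 1 allows up to 0.0374 FPKM. Its log2 fold changes of -1.08 (SE 1.19) and -0.96 (SE 1.19) in the MV and MV_PEEP groups were smaller than their errors, and the MV_PEEP value was -0.38 without MV_PEEP replicate 1 and -1.66 without MV_PEEP replicate 3.

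CDKN2D had 17.7, 15.1 and 15.1 FPKM in the MV libraries, 18.2, 14.3 and 13.6 in the MV_PEEP libraries and 23.3, 23.6 and 15.0 in the CON libraries. CON replicate 3 was level with the ventilated libraries, and the other 2 CON libraries were above all of them. The log2 fold change was -0.47 (SE 0.35) in the MV group and -0.72 (SE 0.35) in the MV_PEEP group, with edgeR adjusted p-values of 0.844 and 0.837. CDKN2B lies on chromosome 1 from 31778607 to 31783049 and CDKN2D on an unplaced scaffold.

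Counted together, 2 members were higher (CDKN1A and PLK3) and 1 was lower (DDB2) in the MV group against the CON group at an unadjusted p under 0.05 (3 of 9), where 6.96% of all genes tested passed that threshold. For the MV_PEEP group the count was 1 of 9 (PLK3, higher), where the share over all genes was 6.25%. For the 6 ventilated libraries against the CON group 2 of 9 passed (CDKN1A and PLK3, both higher) and the share over all genes was 7.43%. PLK3 entered the test through the groups where it is high. Without it the counts were 2 of 8, 0 of 8 and 1 of 8. The members were chosen with earlier results of these data known, so these counts are not independent support for a difference. At an adjusted p under 0.05 edgeR called 0 of 9 members in each of the 4 comparisons, and 0% of all genes. DESeq2 also called 0 of 9, while it called 1.19% of all genes in the MV group and 0.755% in the MV_PEEP group against the CON group, 0.116% between the ventilated groups and 1.56% for the ventilated libraries together. With MV replicate 1 and MV_PEEP replicate 3 both left out, an alternative chosen after seeing the data, edgeR passed 1 member (DDB2, lower) in the MV group, 0 in the MV_PEEP group and 1 (CDKN1A, higher) over the ventilated libraries at an unadjusted p under 0.05. No share over all genes is given for that fit, so its counts are not read as a result about the members. With all libraries, the DESeq2 adjusted p for CDKN1A was 0.0551 in the MV group and 0.0578 over the ventilated libraries.

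The direction was mixed across the set. Values lay above 0 for 4 members and below 0 for 5 in each comparison with the CON group, and the medians were -0.47 in the MV group and -0.24 in the MV_PEEP group, against 0.02 and 0.06 over all genes tested. Both comparisons share the CON libraries. On FPKM, 1 of 9 members (GADD45A) had all MV libraries above all CON libraries, which 10.3% of all genes did, and 1 of 9 (CDKN2B) had them all below, which 4.91% of all genes did. In the MV_PEEP group 2 of 9 (CDKN1A and PLK3) lay above all CON libraries, as did 14.2% of all genes. On TMM-scaled counts the MV tally was 0 of 9 above, where 6.95% of all genes were, and 3 of 9 below (DDB2, CDKN1B and CDKN2B), where 7.72% of all genes were. CDKN1A and PLK3 stayed above in the MV_PEEP group on that scale, as did 6.27% of all genes. PLK3 counts among these only because it passed the filter through its ventilated libraries.

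Between the 2 ventilated groups no member passed an unadjusted p of 0.05 (0 of 9, where 3.52% of all genes did). Since the duration and other settings of the MV_PEEP group are not given, PEEP and any other difference between the groups cannot be told apart. CDKN1A had a log2 fold change of -0.84 (SE 0.80, interval -2.62 to 0.93) in the MV_PEEP group against the MV group, and it turned to 0.21 without MV replicate 1. GADD45A differed by -0.80 (SE 0.50, interval -1.92 to 0.32), and by -0.19 without MV replicate 1. Without MV replicate 2 it differed by -1.14, with an unadjusted edgeR p of 0.0458. DDB2 differed by 0.51 (SE 0.36, interval -0.29 to 1.31) and PLK3 by 0.17 (SE 1.07, interval -2.20 to 2.55). Without MV replicate 1 and MV_PEEP replicate 3, DDB2 differed by 0.96 with an unadjusted edgeR p of 0.0402. With all libraries, the 4 intervals are wide enough to hold both no difference and a difference of more than 1 on the log2 scale. For MDM2 and CDKN1B, at -0.06 (interval -0.90 to 0.77) and 0.25 (interval -0.34 to 0.84), a difference of 1 lay outside the interval.

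The members did not vary as 1 block over the libraries. On log2 CPM over the 9 libraries, which share the group difference and the scaling, CDKN1A had Pearson's r of 0.689 with PLK3 (Spearman's rho 0.833), 0.482 with GADD45A (rho 0.267) and -0.284 with MDM2 (rho -0.35). Its correlations with CCNG1 and CDKN2D were negative, at r = -0.879 (rho -0.9) and r = -0.731 (rho -0.75). After the group means were taken out r was -0.869 with CCNG1 and -0.611 with CDKN2D but 0.35 with PLK3. Without MV replicate 1 and CON replicate 1, the libraries farthest from the median of CDKN1A, r was -0.859 with CCNG1, 0.552 with PLK3, -0.577 with MDM2 and 0.153 with GADD45A (n = 7), so the relation with GADD45A rested on those libraries. Of the 12981 genes tested, ordered by their r with CDKN1A, PLK3 stood at place 681 and CCNG1 at place 12949, close to the opposite end. DDB2 and CDKN1B varied together across libraries, with r = 0.941 (0.891 within groups). These are descriptions over 9 points, with no test.

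**Figure D4:**
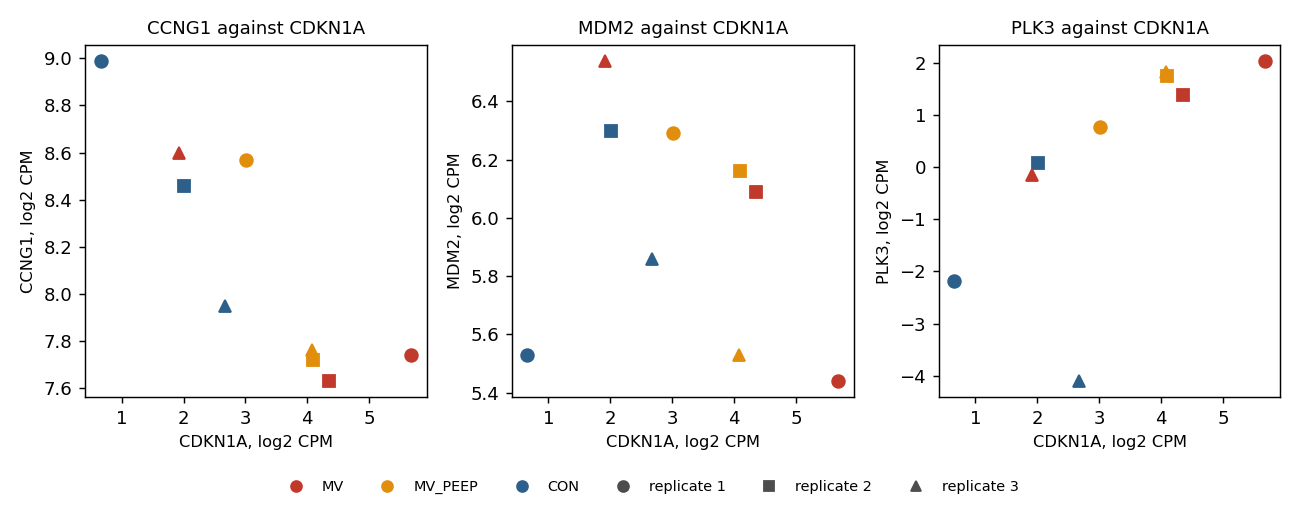
Levels of CCNG1, MDM2 and PLK3 (y axes) against CDKN1A (x axes), all in log2 CPM with TMM scaling and a prior count of 2, with 1 point per library, coloured by group. CCNG1 is lower where CDKN1A is higher (r = -0.879, n = 9), MDM2 has a weaker r of -0.284 over all libraries and -0.577 without MV replicate 1 and CON replicate 1, and PLK3 is low in 2 CON libraries, of which 1 has a count of 0 and is placed by the prior count.

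Of the 6 genes outside the set whose pattern was most like that of CDKN1A over the 9 libraries, those named here are NOP14 (r = 0.97), MYC (0.962), KDM4C (0.953), FAM91A1 (0.948) and GART (0.947). MYC, a growth-promoting transcription factor, had 38.0, 11.4 and 4.03 FPKM in the MV libraries, 6.83, 17.8 and 32.3 in the MV_PEEP libraries and 1.10, 3.61 and 4.18 in the CON libraries. MV replicate 1 was thus its highest library and CON replicate 1 its lowest, as for CDKN1A.

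CHEK2, a checkpoint kinase that phosphorylates p53, had 5.44, 4.61 and 2.19 FPKM in the MV libraries, 5.11, 4.09 and 4.14 in the MV_PEEP libraries and 0.706, 0.552 and 0.245 in the CON libraries. On FPKM every ventilated library was above every CON library. No share over all genes is given for that, so it is not read as a result about the gene. CHEK2 had a log2 fold change of 2.80 (SE 0.53) over the ventilated libraries, with an edgeR adjusted p of 0.145. It was the gene with the smallest p among the 16 tested regulators of p53, of which 10 had values above 0 and 6 below (median 0.17, against 0.04 over all genes) and 1 passed an unadjusted p of 0.05, where 7.43% of all genes did. USP7, RCHY1 and CHEK1 followed with log2 fold changes of 0.35, 0.49 and 0.63. USP7 also had every ventilated library above every CON library on FPKM, with an unadjusted edgeR p of 0.223. CHEK1 had 0.0767, 0.33 and 0.582 FPKM in the CON libraries and passed the filter through its ventilated libraries.

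Of 22 further p53 targets tested, 13 had log2 fold changes above 0 and 9 below over the ventilated libraries against the CON group, with a median of 0.14, and 1 was higher at an unadjusted p under 0.05 (7.43% of all genes passed). The median was -0.08 and 2 passed when MV replicate 1 and MV_PEEP replicate 3 were left out. No share over all genes is given for that fit. With all libraries the gene that passed was TP53I3, a quinone oxidoreductase, with 2.22, 1.54 and 9.04 FPKM in the MV libraries, 8.62, 9.22 and 2.66 in the MV_PEEP libraries and 2.31, 0.496 and 0.604 in the CON libraries. Its highest MV library was replicate 3, where CDKN1A was lowest in that group. SESN1, BTG2 and FDXR had log2 fold changes of 0.76, 1.40 and -0.78, and BTG2 stood at 0.33 without MV replicate 1. The deposited annotation places 70 tested genes besides the members in the p53 signalling pathway, of which 29 belong to the other lists described here. Of the remaining 41, 1 was higher and 1 was lower over the ventilated libraries at an unadjusted p under 0.05, where 7.43% of all genes passed. CD82, a membrane tetraspanin, was the lower one, at -0.75, with 15.6, 9.88 and 8.97 FPKM in the MV libraries, 9.7, 20.2 and 13.1 in the MV_PEEP libraries and 17.4, 18.3 and 19.3 in the CON libraries.

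Of 6 tested genes listed as relatives or partners of GADD45, cyclin G and polo-like kinases, 3 were above and 3 below 0 and 0 passed an unadjusted p of 0.05. GADD45G ran at 315, 76.5 and 6.02 FPKM in the MV libraries, 82.0, 144 and 111 in the MV_PEEP libraries and 30.9, 46.3 and 27.9 in the CON libraries. Its log2 difference over the ventilated libraries was 0.74 once MV replicate 1 was left out and 1.53 with all libraries. CCNG2, GADD45GIP1 and PLK2 had log2 fold changes of -0.35, 0.25 and -0.20. Of the genes listed with the remaining CDK inhibitors, CDKN3, CDKN2AIP and CDKN2C had -0.68, 0.61 and -0.23, with 0 of 3 passing. CDKN2AIP encodes a protein that binds the CDKN2A product and is not itself a CDK inhibitor. Without MV_PEEP replicate 3, CDKN3 stood at -0.97 with an unadjusted edgeR p of 0.00962. CDKN2C, which encodes p18, had 4.21, 9.38 and 14.7 FPKM in the MV libraries, 9.07, 8.38 and 22.4 in the MV_PEEP libraries and 15.6, 10.9 and 6.59 in the CON libraries. The gene described as CDKN2A was not tested, with 18 counts in CON replicate 2 and 0 in the other 8 libraries. CDKN1C was not analysed here.

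Of 19 tested G1 cyclins, CDKs and retinoblastoma family genes, 9 were above and 10 below 0 with 0 passing an unadjusted p of 0.05 (median -0.01 over the ventilated libraries). Without MV_PEEP replicate 3 the median was -0.27 and 2 genes passed, both lower. No share over all genes is given for that fit, so the 2 are not read as a result about the list. With all libraries CCNE2, RBL2, CKS1B and CDK6 had log2 fold changes of 2.13, -0.55, 0.97 and -0.80. CKS1B stood at 0.43 without MV_PEEP replicate 3. CCNE2 (SE 1.12) had 0.177, 0.341 and 0 FPKM in the CON libraries. Like PLK3 it passed the filter through its ventilated libraries, so its value is not support for a difference. Of 17 tested S and M phase genes, 0 passed, and their median was -0.42 in the MV group and 0.69 in the MV_PEEP group against the CON group. MV_PEEP replicate 3 held the highest level of 14 of the 17 genes. Without it the MV_PEEP median was -0.72. In that fit 1 gene was lower at an unadjusted p under 0.05, again with no share over all genes given. CCNB1, the cyclin of mitotic entry, had 0.884, 0.662 and 0.721 FPKM in the MV libraries, 1.07, 0.401 and 7.25 in the MV_PEEP libraries and 0.336, 1.06 and 0.478 in the CON libraries, so its high value lay in MV_PEEP replicate 3 alone. MCM4 and CCNA2 differed by 1.01 and -0.67 over the ventilated libraries, and MCM4 by 0.56 without MV_PEEP replicate 3. BIRC5 was listed above 0 in only MV_PEEP replicate 2 (3.91 FPKM) and CON replicate 1 (2.52 FPKM).

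Of 8 genes listed for muscle atrophy, 7 had log2 fold changes above 0 and 1 below over the ventilated libraries (median 0.25). Of these, 2 (CHRNA1 and FOXO1, both higher) passed an unadjusted p of 0.05, where 7.43% of all genes did. Without MV replicate 1 and MV_PEEP replicate 3, 5 of the 8 lay above 0 and 3 below. CHRNA1, the acetylcholine receptor alpha subunit, had 10, 12.3 and 21 FPKM in the MV libraries, 11.5, 13.2 and 10.3 in the MV_PEEP libraries and 4.93, 4.41 and 2.54 in the CON libraries. On FPKM every ventilated library was above every CON library, as was also so for FOXO1. No share over all genes is given for that. CHRNA1 had a log2 fold change of 1.54 (SE 0.43) with an edgeR adjusted p of 0.376. FOXO1, a transcription factor of the atrophy programme, had 30.0, 7.98 and 8.49 FPKM in the MV libraries, 5.71, 13.4 and 13.2 in the MV_PEEP libraries and 5.06, 4.89 and 5.33 in the CON libraries, a log2 fold change of 1.05 (SE 0.44) with an edgeR adjusted p of 0.637. FOXO1 was highest in MV replicate 1, and without that library it stood at 0.69 with an unadjusted edgeR p of 0.0589. ATF4 differed by -0.64 (SE 0.32) and MAP3K4 by 0.24. The ATF4 difference was -0.89 without MV replicate 1, with an unadjusted edgeR p of 0.00811.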

How the data were processed

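Diaphragm poly(A) RNA of 9 rabbit libraries had been sequenced by the authors (paired-end, dUTP-marked second strand). The submitters' processing notes name cutadapt 1.9, HISAT2 2.0.4, OryCun 2.0 and StringTie 1.3.4d. The deposited table holds whole-number counts, whose counting program is not given in the sources used here, and FPKM values, in which the authors scaled read counts to transcript length and library size, with 0.0001 in place of 0. Of counts from 1 to 12, 54.3% were 4, 8 or 12.

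Genes whose FPKM averaged 0.5 or more entered the edgeR 4.0.16 fit (R 4.3.3, TMM, 1 mean per group, quasi-likelihood test, Benjamini-Hochberg over 12981 genes, threshold 0.05). The study names no RNA-seq test. Standard errors are the log2 fold change over the square root of F. Alternatives used DESeq2 1.42.0, limma 3.58.1 on log2(FPKM + 1) and log2(FPKM + 0.1), other scalings and filters, counts divided by 4, a replicate block, and each library left out. Scripts were tested on simulated data whose counts varied less than these, so that test does not show which changes the fits can find here.

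The members and the gene lists were chosen with earlier results of these data known. Named genes were all members, up to 4 genes of each list with the smallest p over the ventilated libraries, CHEK2 and CDKN2A, and the 6 genes most correlated with CDKN1A; some genes that this rule names are not reported here. The annotated p53 pathway list was added later.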

Additional observations from a re-analysis of the deposited data

How the results depend on the processing

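No alternative brought any of the 9 members to an adjusted p under 0.05. CDKN1A kept a log2 fold change above 0 against the CON group throughout, at 1.62 to 3.19 in the MV group, 1.45 to 2.35 in the MV_PEEP group and 1.72 to 2.77 over the ventilated libraries when 1 library was left out. Without MV replicate 1 and MV_PEEP replicate 3 together it was 1.62, 1.70 and 1.66. PLK3 with 1 library left out ran at 2.09 to 4.80, 2.28 to 4.99 and 2.19 to 4.89. Limma on log2(FPKM + 1), which shrinks differences between low levels, gave it 0.77, 1.01 and 0.89. With log2(FPKM + 0.1) its difference in the MV group was 2.26. The limma fits on FPKM moved the median of all genes in the MV_PEEP group to 0.281 with log2(FPKM + 1) and 0.349 with log2(FPKM + 0.1).

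The number of members past an unadjusted p of 0.05 moved with the setting. In the MV group against the CON group, 3 with all libraries, it was 4 with DESeq2 and with no filter, 1 with limma on log2(FPKM + 1) and 1 to 2 when 1 library was left out (1 without MV replicate 1 and without CON replicate 3). In the MV_PEEP group against the CON group, 1 with all libraries, it was 2 with DESeq2 size factors, DESeq2, limma on log2(FPKM + 0.1), no filter or counts divided by 4, 0 with a mean FPKM of at least 1, which leaves out PLK3, and 0 to 3 with 1 library left out. In the MV_PEEP group against the MV group it was 0 to 1. Over the ventilated libraries, 2 with all libraries, it was 1 under the filter at 1 FPKM and 0 to 3 with 1 library left out. Without MV replicate 1 and MV_PEEP replicate 3 together, chosen after seeing the data, the counts were 1, 0, 1 and 1 in the same order of comparisons. Shares over all genes at that threshold are given for the main fit only, so these shifts are not read as results about the members.

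Signs turned for small differences. CDKN1B in the MV_PEEP group against the CON group was 0.08 in both limma fits. Between the MV_PEEP and MV groups, limma gave MDM2 0.20 and 0.21 and, with log2(FPKM + 0.1), CDKN2B -0.13. Leaving out both libraries gave CDKN1A 0.07 and CDKN2B -0.34. With 1 library left out, MDM2 ran from -0.13 to 0.40 in the MV group, from -0.06 to 0.33 in the MV_PEEP group and from -0.05 to 0.35 over the ventilated libraries against the CON group. Between the MV_PEEP and MV groups, CDKN1A ran from -1.35 to 0.21, MDM2 from -0.30 to 0.23, PLK3 from -0.23 to 0.72, CCNG1 from -0.32 to 0.39 and CDKN2B from -0.58 to 0.70. The cause of these turns was not tested.

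With the replicate number as a replicate block, CDKN1A was 2.64 in the MV group and 1.82 in the MV_PEEP group against the CON group, and between the MV_PEEP and MV groups CCNG1 was -0.04 and CDKN2B -0.06. Same-numbered libraries deviated together at r of -0.284 to 0.364, and for 2 of 9 libraries the nearest one bore the same number, so replicate numbers were not taken to pair libraries. The counts of members past an unadjusted p of 0.05 under the block were 2, 1, 0 and 2, again with no share over all genes given.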
